A study of Homo sapiens with 12 samples.

Results

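Small nucleolar RNA host genes are transcribed loci whose main known product is small: most carry small nucleolar RNAs (snoRNAs) in their introns and leave a spliced long non-coding RNA behind. The 30 genes described here were those of the deposited table whose symbol is SNHG followed by a number, together with GAS5, ZFAS1, EPB41L4A-AS1, DANCR and NORAD, out of 58884 genes in all. A gene counted as expressed where its value reached 10 in at least 4 of the 12 libraries, and 24 of the 30 did. The cells were KYSE70, an established human line of esophageal squamous cell carcinoma, grown with serum and antibiotics in all 3 groups. One group of 4 libraries came from cells without treatment (the control), 4 from cells given 10 µM pyrimethamine for 72 h and 4 from cells given 20 nM mitoxantrone for 72 h. By its title the study asks how 2 drugs that block NRF2, which switches on antioxidant genes, alter messenger RNA levels. Pyrimethamine is an antifolate that blocks dihydrofolate reductase, and mitoxantrone is a topoisomerase II poison that intercalates into DNA. The labels name no vehicle for the controls, and 1 line is a model of 1 tumor.

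SnoRNAs guide the chemical marking of ribosomal RNA: those with boxes C and D direct ribose methylation, and those with boxes H and ACA direct pseudouridylation. They are trimmed out of the intron after splicing and bound by core proteins such as fibrillarin or dyskerin. The spliced host RNA often holds only short reading frames, has no known protein product in most cases, and is removed in part by nonsense-mediated decay, the pathway that degrades messages with an early stop codon. Many hosts start with a 5′ terminal oligopyrimidine (TOP) tract, the sequence that ribosomal protein messages share and through which mTOR controls their translation. GAS5 was found as a growth-arrest transcript, and NORAD differs from the others: it is a DNA-damage-induced RNA that binds PUMILIO proteins and is not known as a snoRNA host.

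The start of the gene is shown for members whose changes the results turn on, to let a reader see which begin with such a tract. Each line gives 20 bases before to 25 bases from the start in RefSeq on GRCh38.p14, 5′ to 3′ on the transcribed strand, and capitals mark a run of at least 5 pyrimidines that begins with C within 5 bases of the start.
SNHG7: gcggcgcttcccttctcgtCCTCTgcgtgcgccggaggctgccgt
SNHG19: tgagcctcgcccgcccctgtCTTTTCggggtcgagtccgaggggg
SNHG4: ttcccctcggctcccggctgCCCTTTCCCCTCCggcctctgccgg
SNHG12: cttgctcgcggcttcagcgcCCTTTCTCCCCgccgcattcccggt
SNHG8: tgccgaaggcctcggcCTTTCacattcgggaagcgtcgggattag
ZFAS1: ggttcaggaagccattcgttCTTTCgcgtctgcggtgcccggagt
SNHG3: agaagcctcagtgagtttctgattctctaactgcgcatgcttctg
SNHG21: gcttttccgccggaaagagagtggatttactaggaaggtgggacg
SNHG1: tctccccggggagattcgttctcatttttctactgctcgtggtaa
SNHG26: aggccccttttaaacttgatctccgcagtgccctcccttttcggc
These windows lie at chr9:136728160-136728204 (minus strand) for SNHG7, chr16:2155334-2155378 (minus) for SNHG19, chr5:139274081-139274125 (plus) for SNHG4, chr1:28581849-28581893 (minus) for SNHG12 and chr4:118278742-118278786 (plus) for SNHG8. The others lie at chr20:49278622-49278666 (plus) for ZFAS1, chr1:28505923-28505967 (plus) for SNHG3, chr15:82750544-82750588 (plus) for SNHG21, chr11:62855861-62855905 (minus) for SNHG1 and chr7:22854220-22854264 (plus) for SNHG26. The first 6 hold a run at the start and the last 4 do not, which holds for the RefSeq start alone. The start in GENCODE 29 lies elsewhere for SNHG12 (1259 bases away), ZFAS1 (464), SNHG26 (62), SNHG8 (53), SNHG3 (37), SNHG1 (29) and SNHG4 (1).

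Depth was 47.5 M to 94.5 M reads assigned to genes per library, with group means of 67.1 M, 65.4 M and 65.9 M for control, pyrimethamine and mitoxantrone. All 8 squamous markers (among them KRT5, TP63 and SOX2) were expressed in every group. Of the markers of other cells, CD3E, CD68 and LYZ (leukocytes), PECAM1 and CDH5 (endothelium) and COL1A2, DCN and LUM (fibroblasts) were below 10 in every library. The remaining 2 of 5 fibroblast markers were COL1A1 and COL3A1. COL1A1 lay at 14553 to 15353 in the controls, 10519 to 11848 under pyrimethamine and 3872 to 5209 under mitoxantrone. COL3A1 lay at 2169 to 2476, 1274 to 1424 and 1996 to 2435 in the same order. VWF, the 1 of 3 endothelial markers left, lay at 941 to 1055, 1036 to 1151 and 174 to 246 in the same order. Of the leukocyte markers PTPRC was the one expressed, at 1.32 to 11.2, 17.4 to 29.4 and 0 to 7.42. The squamous sums were 325097 to 348438, 397267 to 421127 and 323669 to 346038. They were mostly KRT5 (medians 222922, 267848 and 218880) and KRT6A (66307, 96905 and 53617). In the same order TP63 had medians of 16658, 13006 and 22365, SOX2 9087, 6647 and 18026, and DSG3 20877, 12746 and 21042. PKP1 had 3991, 3784 and 2312, KRT17 840, 806 and 555, and KRT14 142, 132 and 157. The part of these shifts in the results below was not tested. The library mitoxantrone 1 stood apart from its group: a chi-square of its counts per gene against the other 3 was 23.8 to 33.9, against 5.45 to 12.1 for all other pairs within a group. The comparisons with that group were also fitted without it, and calls or values that moved are given beside the results. Whether the 4 libraries of a group come from separate cultures is not given in the labels, so p-values measure the spread between these libraries, which may be technical.

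Levels between genes are compared per kilobase of annotated exon (GENCODE 29, exons merged), since a longer transcript gives more reads. The merged length covers all annotated transcripts, 29 for GAS5 (3631 bases), 17 for SNHG12 (4266) and 1 for SNHG19 (342). It can exceed the length of the RNA made, so levels of genes with many transcripts may be too low and the order is approximate. In the controls SNHG29, host of SNORD49A, SNORD49B and SNORD65, had the highest level of the 30, 5237 ± 285 normalized counts per kilobase (SD, n = 4). NORAD followed at 2495 ± 142, then SNHG19 at 1428 ± 125 and SNHG6 at 1318 ± 112, whose values overlapped. SNHG8 (998 ± 87.0) and SNHG16 (862 ± 24.8) came next, and DANCR (519 ± 44.3) and GAS5 (499 ± 39.9) did not differ beyond their spread. SNHG1, SNHG7, SNHG5 and ZFAS1 lay between 235 and 341. Of the expressed members SNHG12 (15.3 ± 1.1) and SNHG20 (11.2 ± 2.31) were lowest. Summed over the 30 genes, the members took 0.0813% ± 0.0027 of all values in the controls, 0.0809% ± 0.0039 under pyrimethamine and 0.115% ± 0.0035 under mitoxantrone (SD, n = 4). The libraries of the first 2 groups spanned 0.0779% to 0.0863%, and the 4 mitoxantrone libraries 0.1096% to 0.1168%, with mitoxantrone 1 the lowest.

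**Figure D1:**
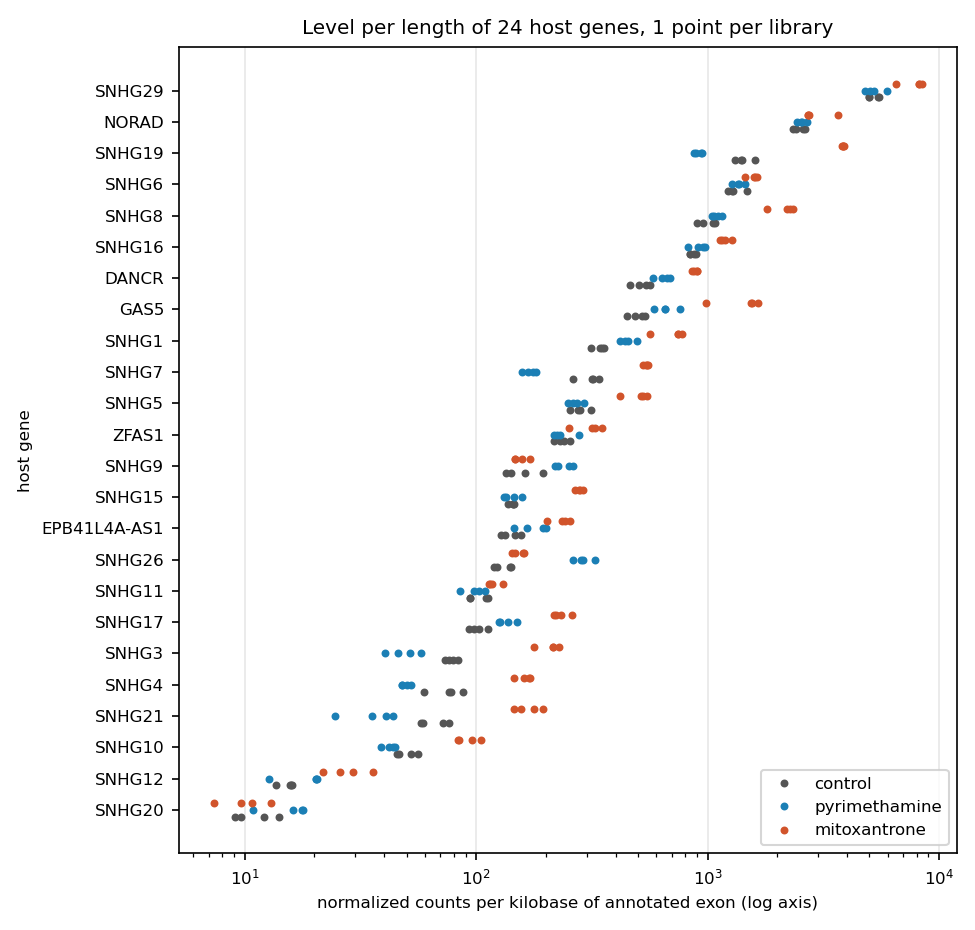
Normalized counts per kilobase of annotated exon on a log axis for the 24 expressed host genes, 1 point per library, ordered by the control mean. SNHG29 and NORAD are highest in the controls, SNHG12 and SNHG20 lowest, and for most genes the mitoxantrone points lie to the right of the control points.

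The other 6 members were too low to test. SNHG18, SNHG27 and SNHG28 were listed at 0 in all 12 libraries, where 3 reads are worth 1.98 to 3.95 on the value scale. For SNHG28, 100% of the exon bases are shared with other annotated genes on the same strand, VSIG8 among them, so its 0 is uncertain. SNHG14, the long host of the imprinted SNORD115 and SNORD116 clusters that neurons express, stayed between 0 and 5.91. SNHG22 lay between 1.32 and 14.3, and its 2 values above 10 were both under pyrimethamine. SNHG25, host of SNORD104, lay between 3.56 and 13.2, and 48.6% of its exon bases lie in annotated small RNA genes.

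Most of the host genes were higher under mitoxantrone. Of the 24 expressed members 21 rose against the control and none fell, where 33.5% of all 16950 tested genes were called higher and 35.8% lower (limma on log2(value + 1), Benjamini-Hochberg adjusted p under 0.05). No member was lower at an unadjusted p under 0.05 either, nor with edgeR or DESeq2. An increase of at least 2-fold was called for 8 members, against 3.88% of all genes, and a decrease of that size for none, against 13.8%. The median log2 change of the members was 0.82, and that of all tested genes -0.01. In 20 members every mitoxantrone library lay above every control, which held for 29.9% of all genes, and in none did every one lie below (31% of all genes). Only 1 cell line was measured in bulk, so a change in every cell and a change in some of the cells, or in RNA per cell, cannot be told apart.

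GAS5 (chr1:173863900-173868882, minus strand, GRCh38), host of a set of box C/D snoRNAs, had the largest change. Its values were 1629, 1768, 1896 and 1955 in the controls and 3560.3, 5971, 5601 and 5655 under mitoxantrone. All 4 treated libraries lay above all controls, with mitoxantrone 1 well under the other 3. The log2 change was 1.49 ± 0.11 (SE; adjusted p = 1.40e-10), a fold of 2.82, and it was 1.67 without mitoxantrone 1. SNHG19 (chr16:2154797-2155358, minus strand) is a short host of SNORD60. It read 447, 482, 477 and 548 in the controls and 1303, 1309, 1324 and 1316 under mitoxantrone, with the treated libraries close together at 1313 ± 8.69 (mean and SD). Its log2 change was 1.43 ± 0.07 (SE; adjusted p = 1.61e-13).

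SNHG3 (chr1:28505980-28510892, plus strand) carries SNORA73A and SNORA73B, the U17 RNAs that act in cleavage of the ribosomal RNA precursor. Its values were 298, 312, 339 and 324 in the controls and 932, 726, 878 and 878 under mitoxantrone, a log2 change of 1.41 ± 0.11 (SE; adjusted p = 1.25e-10). SNHG21 (chr15:82750564-82757206, plus strand), host of SCARNA15, rose from 61.7, 60.8, 75.8 and 80.4 to 187, 165, 204 and 153, a log2 change of 1.34 ± 0.19 (SE; adjusted p = 2.47e-06). In GENCODE 29, 72.9% of its exon bases are shared with another annotated gene on the same strand, AC105339.2, so its counts are uncertain. For both, treated and control libraries were far apart.

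SNHG17, with the SNORA71 genes in its introns, went from 388, 432, 472 and 409.8 to 929.6, 1090.4, 904 and 978 (log2 change 1.19 ± 0.08 SE). SNHG8, host of SNORA24, went from 827, 882, 977 and 997 to 1668, 2164, 2029.9 and 2099 (log2 change 1.11 ± 0.07 SE). SNHG4 (chr5:139274102-139284899, plus strand), which hosts SNORA74A, went from 265, 342, 392 and 347 to 753, 653, 717 and 765 (log2 change 1.11 ± 0.10 SE). SNHG1 (chr11:62851988-62855914, minus strand), the U22 host gene with 6 named snoRNAs inside by the annotation, rose from 1178, 1317, 1283 and 1340.0 to 2113, 2792, 2923 and 2803 (log2 change 1.04 ± 0.08 SE). In all 4 genes the lowest treated library was above the highest control, and for SNHG8 and SNHG1 that lowest library was mitoxantrone 1. These 4 adjusted p-values from limma ranged from 2.54e-11 to 3.54e-09.

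**Figure D2:**
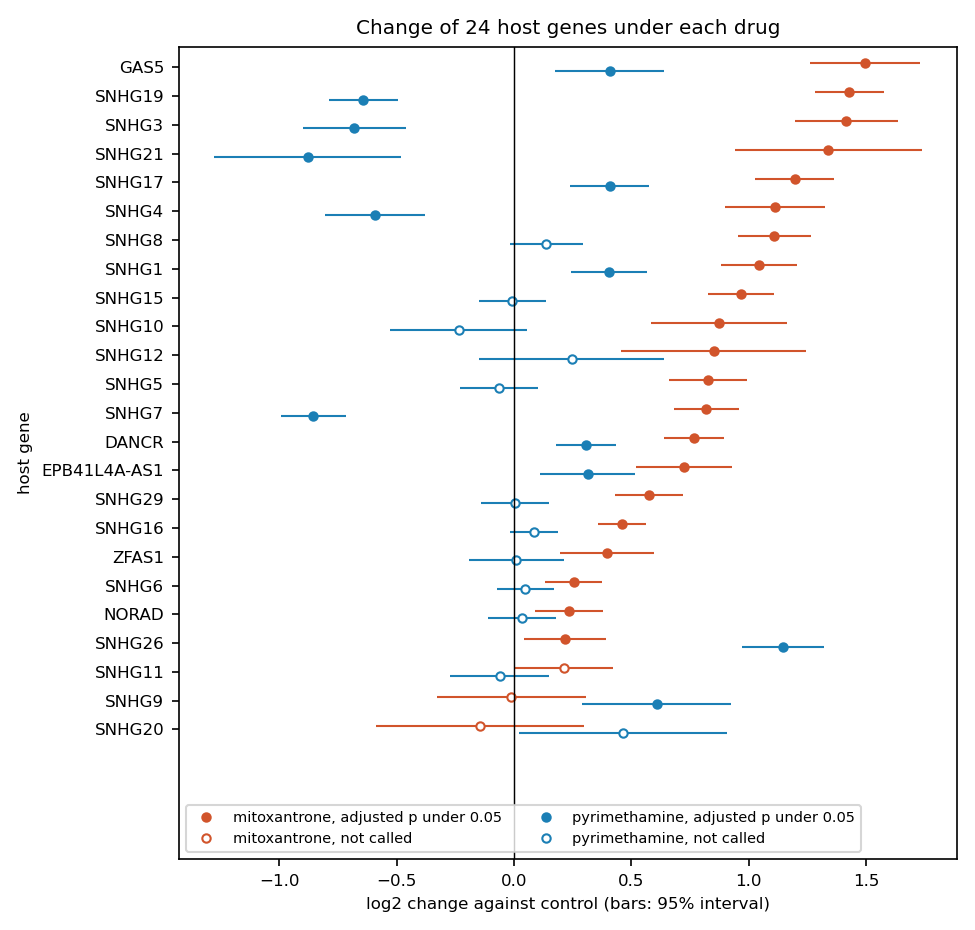
Log2 change against control (horizontal axis) with its 95% interval for the 24 expressed host genes under mitoxantrone and pyrimethamine; filled points have an adjusted p under 0.05. The mitoxantrone points run from -0.14 for SNHG20 to 1.49 for GAS5, while the pyrimethamine points lie on both sides of 0, from -0.88 to 1.15.

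A middle group rose by less than 2-fold. SNHG15, host of SNORA9, nearly reached it, at 524, 500.1, 533 and 524 in the controls and 979, 1058, 1019 and 1013 under mitoxantrone (log2 change 0.97 ± 0.07 SE). SNHG10 (0.87 ± 0.14 SE), SNHG12 (0.85 ± 0.19 SE), SNHG5 (0.83 ± 0.08 SE) and SNHG7 (0.82 ± 0.07 SE) followed on the same log2 scale. SNHG12 and SNHG5 carry several snoRNAs and SNORD50B, respectively, and SNHG10 carries the Cajal body RNA SCARNA13. DANCR, an RNA first described as holding epidermal progenitors undifferentiated and host of SNORA26, rose from 1058, 1239, 1289 and 1157 to 2004, 2045, 2053 and 1951 (log2 change 0.77 ± 0.06 SE). EPB41L4A-AS1, host of SNORA13, changed by 0.72 ± 0.10 SE, though 49.6% of its exon bases face exons of other genes on the opposite strand and the strand setting of the counting is not given in the sources used here.

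SNHG29, SNHG16, ZFAS1 and SNHG6 changed by smaller folds. SNHG29, the most abundant, read 18736, 18795, 20774 and 20434 in the controls and 24517, 31600.0, 30704 and 30919 under mitoxantrone, a log2 change of 0.57 ± 0.07 (SE; adjusted p = 2.32e-07) that was 0.66 without mitoxantrone 1. SNHG16, host of the SNORD1 genes, went from 4621 ± 133 to 6367 ± 320.3 (mean and SD, n = 4; log2 change 0.46). ZFAS1, the antisense partner of ZNFX1 and host of the SNORD12 genes, changed by 0.40 ± 0.10 (SE; adjusted p = 0.00110), and here mitoxantrone 1 (564) lay inside the control range. SNHG6, host of SNORD87, changed by 0.25 ± 0.06 (SE; adjusted p = 6.22e-04) with 1 treated library below the highest control. Exons of other genes on the opposite strand face 30.6% of the SNHG16 and 29.3% of the SNHG6 exon bases. With the strand setting not given, the counts of both are uncertain to that extent.

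NORAD values were 13838, 12518, 14080.4 and 12837 in the controls and 19500.4, 14459.7, 14649.6 and 14469 under mitoxantrone. The first of the treated libraries, mitoxantrone 1, was the highest of all 12, and the other 3 lay just above the highest control. Its log2 change was 0.23 ± 0.07 (SE; adjusted p = 0.00551) with mitoxantrone 1 and 0.13 without it (adjusted p = 0.00800), where the value moved by over 1.5 times. With the libraries rescaled to the same total it was 0.13 (adjusted p = 0.114), and with quantile normalization 0.14 (adjusted p = 0.0889). SNHG26 rose by 0.22 ± 0.08 (SE; adjusted p = 0.0265) under mitoxantrone, and that call was lost on the scale of equal library totals (0.12, adjusted p = 0.220). It was also lost without control 1 (0.18, adjusted p = 0.0894), control 2 (0.19, adjusted p = 0.0761), mitoxantrone 2 (0.19, adjusted p = 0.0689) or mitoxantrone 3 (0.20, adjusted p = 0.0650).

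The other 3 expressed members, SNHG11, SNHG9 and SNHG20, did not pass the test under mitoxantrone. SNHG11, host of SNORA60, had a log2 change of 0.21 ± 0.10 (SE; adjusted p = 0.0668) with a 95% interval of 0.00 to 0.42, and all 4 treated libraries lay above the controls. It was called without control 3 (0.26, adjusted p = 0.0445) and with quantile normalization (0.36, adjusted p = 0.00372). SNHG9, host of SNORA78, had -0.01 ± 0.15 SE (interval -0.33 to 0.31), and SNHG20, host of SCARNA16, had -0.14 ± 0.21 SE (interval -0.59 to 0.30). With quantile normalization these 2 turned to 0.33 for SNHG9 and 0.21 for SNHG20, neither of them called.

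Pyrimethamine left the family near where it was as a whole and moved single members either way. Against the same controls 7 members rose and 5 fell, while 26.4% of all tested genes were called higher and 26.9% lower, so the counts were close to the background. The median log2 change of the members was 0.04, that of all genes 0.00. In 6 members every treated library lay above every control and in 6 every one below, against 25.8% and 25.4% of all genes.

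SNHG26 (chr7:22854178-22861579, plus strand), host of SNORD93, was the single member to at least double, a rise called for 4.35% of all genes, and no member fell by that much (2.35% of all genes). Its values were 314, 324, 372 and 366 in the controls and 854, 746, 691 and 759 under pyrimethamine, with no overlap. The log2 change was 1.15 ± 0.08 (SE; adjusted p = 3.65e-10), a fold of 2.21. SNHG9 (chr16:1964959-1965509, plus strand) read 73.9, 78.0, 89.3 and 107 in the controls and 144, 121, 139 and 124 under pyrimethamine, a log2 change of 0.61 ± 0.15 (SE; adjusted p = 0.00204), and the groups did not overlap either.

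Smaller rises were seen in 5 hosts. GAS5 read 2125, 2379.8, 2377 and 2748 under pyrimethamine, all above the controls given before, a log2 change of 0.41 ± 0.11 (SE; adjusted p = 0.00416). SNHG1 read 1649, 1701, 1575 and 1855 (0.40 ± 0.08 SE) and SNHG17 read 627, 524, 531 and 576 (0.41 ± 0.08 SE), again without overlap. DANCR changed by 0.31 ± 0.06 SE and EPB41L4A-AS1 by 0.31 ± 0.10 SE, the latter with 1 treated library inside the control range.

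The 5 members that fell under pyrimethamine were among the 21 of 24 that rose under mitoxantrone. Both comparisons use the same controls. The share of all genes with both calls, or with all 3 groups apart, was not counted. SNHG7 (chr9:136721366-136728184, minus strand), host of the SNORA17 genes, read 1370.4, 1390.0, 1138 and 1472 in the controls, 787, 724, 761 and 688 under pyrimethamine and 2363, 2412, 2366 and 2292 under mitoxantrone. Its 3 groups did not overlap, and it fell by 0.85 on the log2 scale under pyrimethamine (SE 0.07, adjusted p = 8.23e-10) and rose by 0.82 under mitoxantrone. SNHG19 read 305, 324, 299 and 319.8 under pyrimethamine, a log2 change of -0.64 ± 0.07 (SE; adjusted p = 1.29e-07). SNHG3 read 165, 236, 187 and 212, a log2 change of -0.68 ± 0.11 (SE; adjusted p = 1.28e-05). SNHG4 read 214, 233, 224 and 214, a change of -0.59 ± 0.10 SE, and SNHG21 read 25.8, 37.4, 46.1 and 42.7, a change of -0.88 ± 0.19 SE. For each of these 4 genes too the pyrimethamine libraries lay below and the mitoxantrone libraries above all controls.

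**Figure D3:**
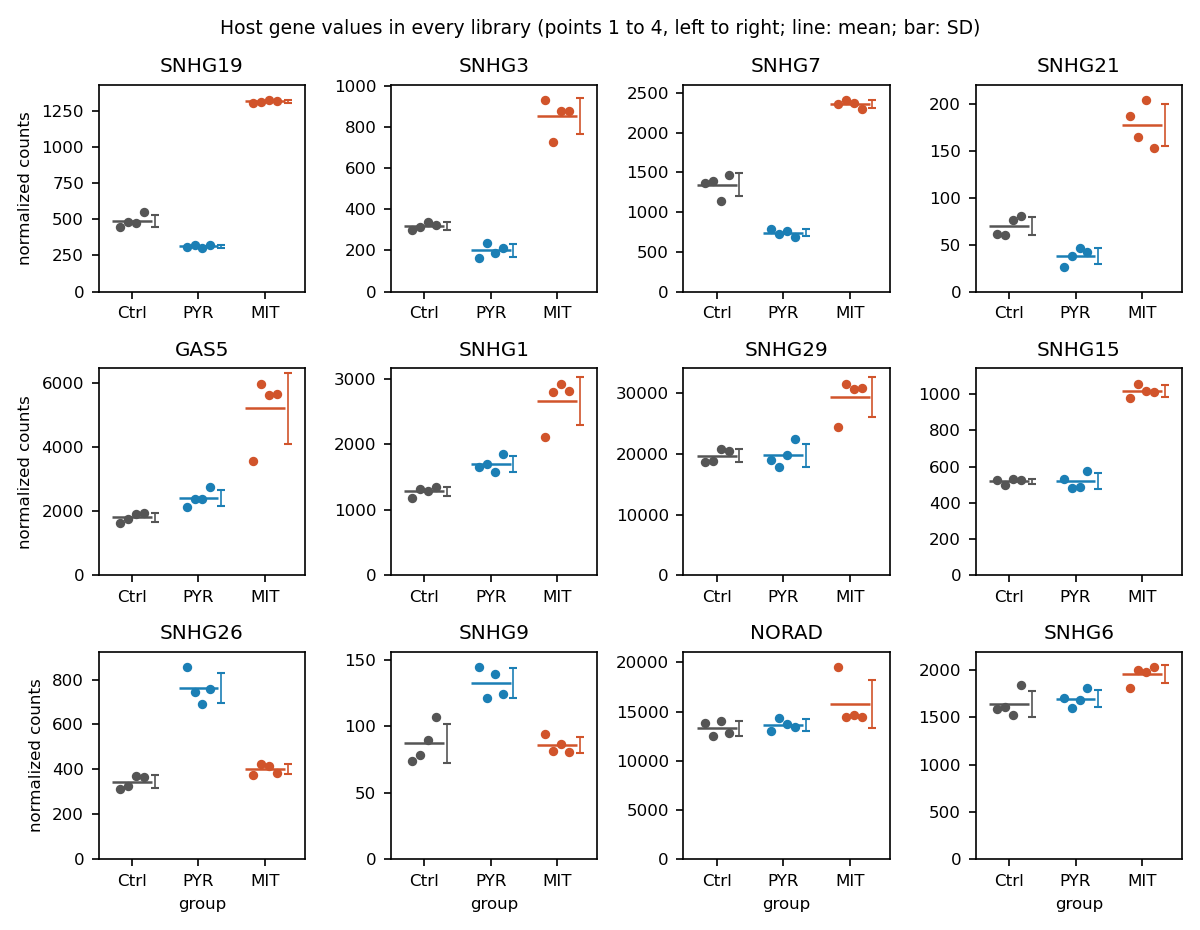
Normalized counts (vertical axes from 0) of 12 host genes in every library; points are the 4 libraries of control (Ctrl), pyrimethamine (PYR) and mitoxantrone (MIT), lines are means and bars are SD. SNHG19, SNHG3, SNHG7 and SNHG21 fall under one drug and rise under the other, SNHG26 and SNHG9 are highest under pyrimethamine, and mitoxantrone 1 is the low point of GAS5, SNHG1 and SNHG29 and the high point of NORAD.

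Of the 24 members, 12 were not called under pyrimethamine. SNHG15 (log2 change -0.01 ± 0.07 SE, 95% interval -0.15 to 0.13), SNHG29 (0.00 ± 0.07 SE, interval -0.14 to 0.15) and ZFAS1 (0.01 ± 0.10 SE, interval -0.19 to 0.21) were nearest to 0. NORAD (0.04), SNHG6 (0.05), SNHG5 (-0.06), SNHG11 (-0.06), SNHG16 (0.08) and SNHG8 (0.14) had log2 changes of small size. SNHG12 (0.25 ± 0.19 SE), SNHG10 (-0.24 ± 0.14 SE) and SNHG20 (0.47 ± 0.21 SE) had wider errors. For SNHG10 the values of all 4 treated libraries were below all controls, and it was called with quantile normalization (-0.37, adjusted p = 0.0275), as was SNHG8 (0.18, adjusted p = 0.0494). SNHG20 had an adjusted p of 0.0719 and was called without control 4 (0.58, adjusted p = 0.0391) or pyrimethamine 4 (0.63, adjusted p = 0.0185), in a fit of the 8 libraries alone (0.47, adjusted p = 0.0453) and with DESeq2 (0.50, adjusted p = 0.0385). SNHG16 was called without pyrimethamine 1 (0.14, adjusted p = 0.0154).

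The 2 drugs were also compared directly. Mitoxantrone libraries were higher in 21 members and lower in 3, and none was without a call, where 36.9% of all genes were called higher and 39.5% lower. A difference of at least 2-fold was called for 7 members upward, against 8.06% of all genes, and for none downward, against 17.1%. All mitoxantrone libraries lay above all pyrimethamine libraries in 20 members and below them in 2 (33.3% and 35.5% of all genes). SNHG21 (2.22 ± 0.19 SE), SNHG3 (2.09 ± 0.11 SE) and SNHG19 (2.07 ± 0.07 SE) differed by more than 4-fold, with adjusted p-values of 7.65e-10, 7.71e-14 and 1.06e-16 from limma. SNHG4 (1.70 ± 0.10 SE), SNHG7 (1.67 ± 0.07 SE), SNHG10 (1.11 ± 0.14 SE) and GAS5 (1.09 ± 0.11 SE) followed on the log2 scale. The 3 that were lower under mitoxantrone were SNHG26 (-0.93 ± 0.08 SE), SNHG9 (-0.62 ± 0.15 SE) and SNHG20 (-0.61 ± 0.21 SE), the last with overlapping libraries. SNHG9 and SNHG20 were not called with quantile normalization (-0.17, adjusted p = 0.310, and -0.11, adjusted p = 0.631), and SNHG20 was not called without mitoxantrone 2 (-0.47, adjusted p = 0.0583). The higher call of NORAD was lost with quantile normalization (0.12, adjusted p = 0.139), equal library totals (0.15, adjusted p = 0.0603) and DESeq2 (0.21, adjusted p = 0.0537), and that of SNHG11 without pyrimethamine 1 (0.21, adjusted p = 0.0785) or mitoxantrone 2 (0.23, adjusted p = 0.0621). The doses differ (10 µM and 20 nM), so the drugs were not compared at matched dose.

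Against mitoxantrone 2 to 4, mitoxantrone 1 was below the other 3 libraries in 14 of the 24 members, within them in 6 and above them in 4. The shares over all tested genes were not counted, so whether the members differ from other genes in this is not known. GAS5 stood at 62.0% of their mean, SNHG12 at 71.9%, SNHG1 at 74.4% and ZFAS1 at 75.9%. Without this library the counts were again 21 higher and none lower against the control, and 21 higher and 3 lower against pyrimethamine, and each member had the same call as with it. The log2 change under mitoxantrone was then 0.97 for SNHG12, 1.15 for SNHG1 and 0.49 for ZFAS1. Against pyrimethamine GAS5 then had 1.26, and the value of NORAD moved by over 1.5 times, to 0.09 (adjusted p = 0.0443). The libraries of SNHG19 and SNHG7, in contrast to those of GAS5, were level across the group.

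**Figure D4:**
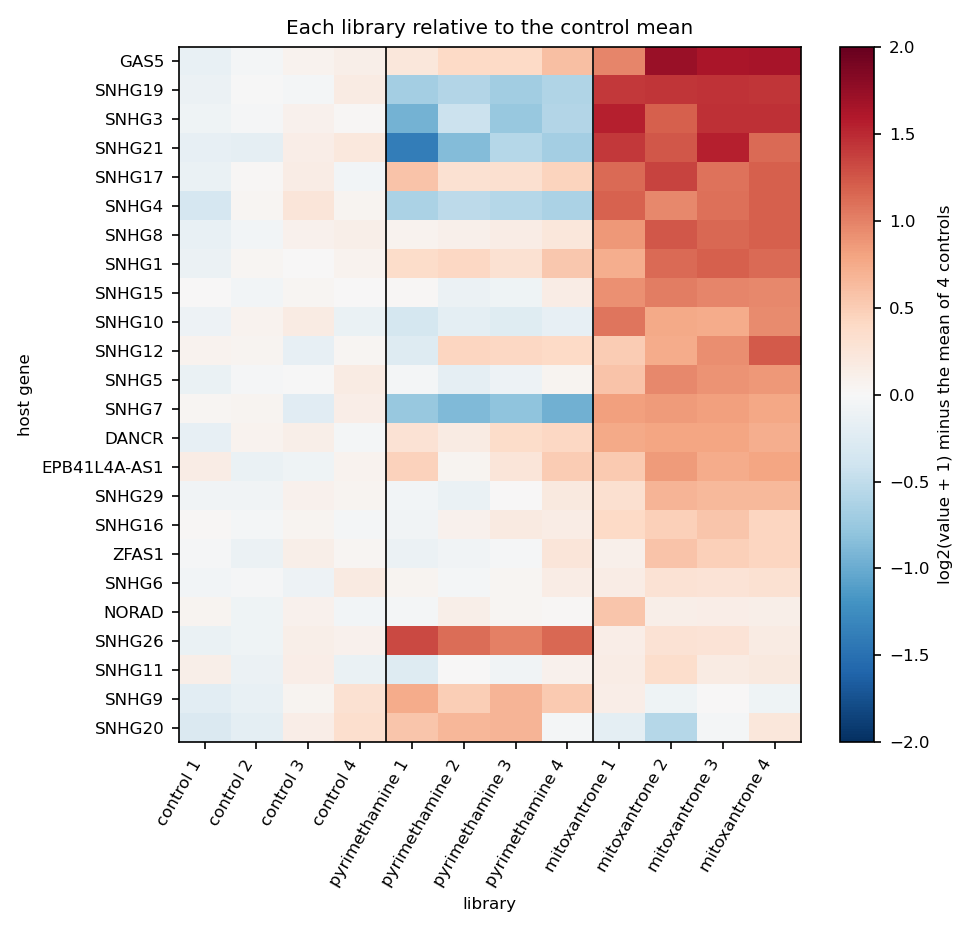
Colors give log2(value + 1) minus the mean of the 4 controls for each expressed host gene (rows) in each of the 12 libraries (columns), on a scale from -2 to 2. The mitoxantrone block is red for most genes, the pyrimethamine block mixes blue (SNHG19, SNHG3, SNHG21, SNHG4, SNHG7) and red (SNHG26, SNHG9), and mitoxantrone 1 is paler than its group for GAS5, SNHG8 and SNHG1.

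Many of these genes share a start region or overlap with a coding gene. The change of such a neighbour is given for 13 hosts. RCC1, the nucleotide exchange factor of Ran, starts 37 bases from SNHG3 on the same strand, and 5.92% of the SNHG3 exon bases lie in its exons. RCC1 fell under pyrimethamine (-0.52 ± 0.04 SE) and rose under mitoxantrone (0.92 ± 0.04), in the same directions as SNHG3. FAM69B, opposite SNHG7 with 25.2% of its exon bases overlapped, also fell (-0.41 ± 0.06) and rose (0.44 ± 0.06). SIL1, which overlaps 2.64% of the SNHG4 exon bases on the other strand, fell under pyrimethamine (-0.43 ± 0.05) and had 0.09 ± 0.05 under mitoxantrone. A larger part of the SNHG4 exon bases, 14.01%, is shared with MATR3 on the same strand. The change of MATR3 is not given here, and the SNHG4 counts are uncertain to that extent. TRAF7, which starts 340 bases from SNHG19 on the other strand, had 0.07 ± 0.03 under pyrimethamine and rose by 0.25 ± 0.03 under mitoxantrone.

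SLC3A2, a heavy chain of amino acid transporters with its start 188 bases from that of SNHG1, rose by 0.28 ± 0.04 and 0.53 ± 0.04 (log2, SE) under pyrimethamine and mitoxantrone. RPS2, a ribosomal protein gene 99 bases from SNHG9, had 0.05 ± 0.07 and 0.45 ± 0.07, the second a rise. ZBTB37, 800 bases from GAS5, rose under pyrimethamine (0.58 ± 0.11) and had -0.04 ± 0.11 under mitoxantrone, where GAS5 had its largest change. ZNFX1, whose start lies 248 bases from that of ZFAS1, rose under pyrimethamine (0.57 ± 0.04) and fell under mitoxantrone (-0.999 ± 0.04), where ZFAS1 rose. LRRC75A, opposite SNHG29, fell under both drugs (-1.26 ± 0.12 and -0.41 ± 0.12). TRNAU1AP, opposite SNHG12, had -0.11 ± 0.08 under pyrimethamine and rose by 0.58 ± 0.08 under mitoxantrone. GLRX5, opposite SNHG10, rose under both (0.45 ± 0.04 and 0.23 ± 0.04). EPB41L4A, opposite EPB41L4A-AS1, rose under pyrimethamine (0.33 ± 0.05) and fell under mitoxantrone (-0.16 ± 0.05), where EPB41L4A-AS1 rose. SEC14L1, on the strand of SNHG20, had -0.01 ± 0.04 under pyrimethamine and fell under mitoxantrone (-0.31 ± 0.04). Without mitoxantrone 1 the neighbours named here had the same calls under mitoxantrone. Without a stated strand setting, reads of overlapping exons cannot be assigned with certainty to either gene.

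**Figure D5:**
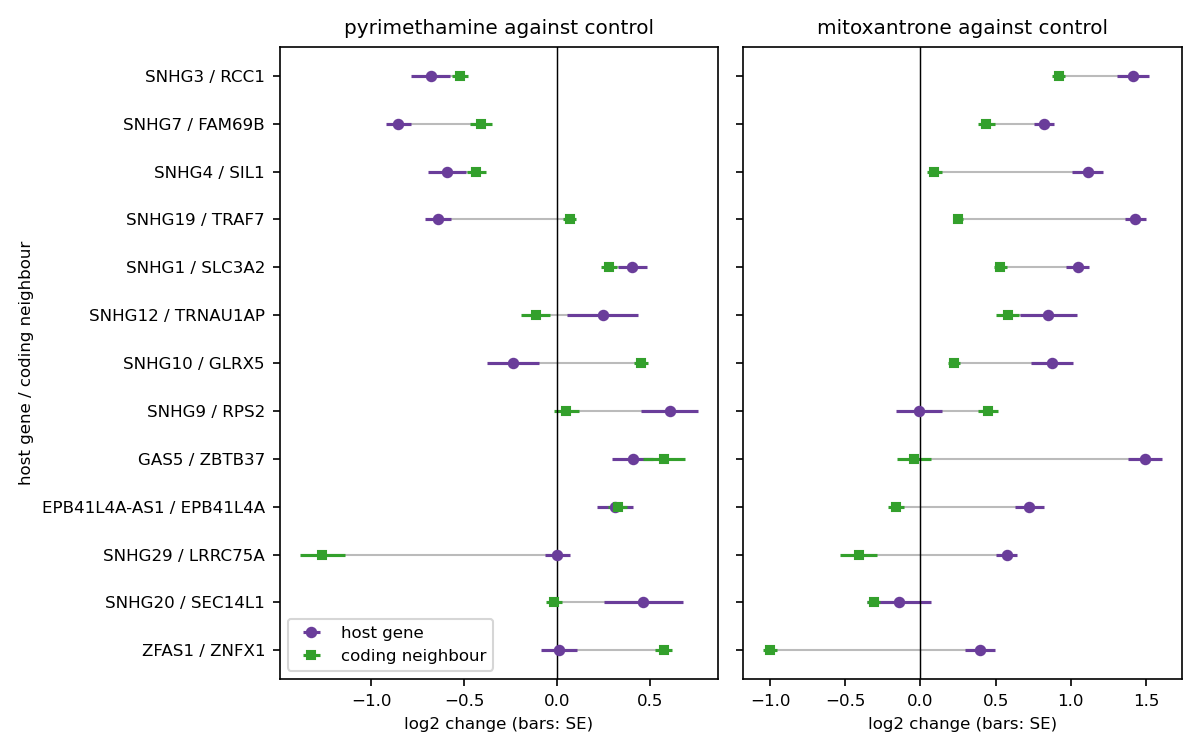
Log2 change against control with SE bars for 13 host genes (circles) and a coding neighbour of each (squares) under pyrimethamine (left) and mitoxantrone (right). SNHG3 and RCC1 lie on the same side of 0 in both panels, while ZFAS1 and ZNFX1 lie on opposite sides under mitoxantrone.

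The snoRNAs themselves were barely covered. The table has 140 snoRNA genes inside the 30 members, of which 5 passed the filter and 124 were listed at 0 in all libraries. The split followed position in the host: all 47 that overlap a host exon in GENCODE 29 were listed at 0, while 16 of the 93 in introns had at least 1 read. Among the 24 expressed hosts, 15 of 19 intronic snoRNA genes had a read and none of 30 exon-overlapping ones. How reads shared by 2 annotated genes were treated is not given in the sources used here. The snoRNA genes of GAS5 were not analysed here.

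The sequences are shown of the 3 tested snoRNAs inside members that had a called change against the control. They come from the GENCODE 29 transcripts (GRCh38), written as DNA. Capitals mark the C box and D box of a C/D snoRNA and the ACA of an H/ACA snoRNA.
SNORD104: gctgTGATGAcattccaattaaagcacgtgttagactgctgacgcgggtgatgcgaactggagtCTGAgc
SNORD12B: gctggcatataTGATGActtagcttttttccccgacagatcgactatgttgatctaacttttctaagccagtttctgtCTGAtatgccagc
SNORA26: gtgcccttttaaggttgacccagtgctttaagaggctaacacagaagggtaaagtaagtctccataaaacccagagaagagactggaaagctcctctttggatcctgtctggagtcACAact
SNORD104 lies at chr17:64146083-64146152 in an intron of SNHG25, SNORD12B at chr20:49280319-49280409 in ZFAS1 and SNORA26 at chr4:52713249-52713370 in DANCR, all on the plus strand. SNORD104 read 9.35, 18.5, 10.4 and 9.22 in the controls and 60.9, 48.7, 38.3 and 33.2 under mitoxantrone, without overlap, a log2 change of 1.87 ± 0.45 (SE; limma adjusted p = 9.91e-04). Its host SNHG25 was under the filter in the same libraries, at 10.3, 7.63, 8.66 and 9.86. These host counts are uncertain, since 48.6% of the SNHG25 exon bases lie in annotated small RNA genes. SNORA26 read 9.35, 7.93, 4.15 and 7.91 in the controls and 22.3, 14.8, 13.3 and 16.4 under pyrimethamine (log2 change 1.11 ± 0.41), and SNORD12B had 1.02 ± 0.37 there, with overlap. SNORA26 passed the filter only through its pyrimethamine libraries, where it was high, so its call there is no independent support for a rise. Under mitoxantrone, where DANCR and ZFAS1 rose, SNORA26 (0.11 ± 0.41) and SNORD12B (0.01 ± 0.37) were not called. SNORA71B in SNHG17 (-0.81 ± 0.37) and SNORA73B in SNHG3 (0.25 ± 0.37) were not called under mitoxantrone either. Without mitoxantrone 1 the change of SNORD104 against the control was 1.71 ± 0.49, and the other 4 were again not called. Between the drugs SNORD104 (2.34 ± 0.45) and SNORA73B (0.87 ± 0.37) were higher under mitoxantrone. SNORA71B (-1.62 ± 0.37), SNORD12B (-1.01 ± 0.37) and, with the filter limit given above, SNORA26 (-0.996 ± 0.41) were lower. The calls of SNORA73B and SNORA26 between the drugs were lost without mitoxantrone 1. Values this low rest on few reads, and whether they are mature snoRNA or unspliced host RNA was not tested.

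Coding genes that carry snoRNAs in their introns, many of them ribosomal protein genes, were mostly higher under mitoxantrone as well. Of 43 such genes, 39 rose, none fell and 4 were not called (median log2 change 0.47). The highest were RABGGTB (1.05), a subunit of the enzyme that prenylates Rab proteins, and RCC1 (0.92). RCC1 overlaps SNHG3 on the same strand, so it is not a locus apart from that member. Under pyrimethamine 14 rose, 9 fell and 20 were not called, led by RPS12 (0.62) and RPSA (0.53) upward and RPL3 (-0.67) and HSPA9 (-0.57) downward. Of 43 tested messages with a 5′ TOP tract that are not snoRNA hosts, 42 rose under mitoxantrone and none fell (median 0.41), with RPS10 (1.06) and EIF4B (0.68) highest. Under pyrimethamine 27 of them rose and 4 fell (median 0.17), with EIF3H (0.45) and RPL24 (0.40) highest and EIF4B (-0.59) and NACA (-0.39) lowest. The median over all tested genes was -0.01 and 0.00 in the 2 comparisons. Without mitoxantrone 1, 41 of the coding hosts and 42 of the TOP messages rose and none fell. The share of all genes called higher and lower was 33.5% and 35.8% under mitoxantrone and 26.4% and 26.9% under pyrimethamine. For both lists under mitoxantrone, none was lower at an unadjusted limma p under 0.05 either, nor with edgeR or DESeq2.

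Of the core proteins and assembly factors of the snoRNA particle, 13 of 21 rose under mitoxantrone, 3 fell and 5 were not called (median 0.15; 33.5% of all genes were higher and 35.8% lower), with NOP56 (0.75), a box C/D core protein, and NAF1 (0.62), an H/ACA assembly factor, highest. SHQ1 (-0.24) and NUFIP1 (-0.21), also assembly factors, fell most. Without mitoxantrone 1, 14 rose and 3 fell, as NOLC1 was then called higher (0.09). Under pyrimethamine 9 rose and 5 fell (median 0.07; all genes 26.4% and 26.9%), with NHP2 (0.39) and SNU13 (0.35) highest and RPAP3 (-0.29) and GAR1 (-0.28) lowest. Of 17 genes around MYC and ribosome biogenesis, 8 rose and 7 fell under mitoxantrone (median 0.12), with BOP1 (0.55) and NOB1 (0.43) highest and MXD1 (-1.26), a MYC antagonist, and RRP12 (-0.44) lowest. Without mitoxantrone 1, 8 rose and 8 fell (median 0.05). Under pyrimethamine 7 of the 17 rose and 3 fell (median 0.12), among them BOP1 (0.57) and MYC (0.41) upward and UBTF (-0.47) and NOB1 (-0.41) downward.

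Of the factors of nonsense-mediated decay, which removes several host RNAs, 9 of 14 rose under mitoxantrone and 3 fell (median 0.25; all genes 33.5% and 35.8%), with SMG9 (0.91) and UPF3A (0.44) highest and SMG5 (-0.47) and SMG8 (-0.35) lowest. Under pyrimethamine 5 rose and 3 fell, near the shares over all genes of 26.4% and 26.9% (median 0.00), with SMG1 (0.68), the kinase of UPF1, and SMG5 (0.37) highest and SMG6 (-0.30) and SMG9 (-0.29) lowest. Of 13 other transcripts known as targets of this decay, 5 rose and 5 fell under mitoxantrone (median 0.11), and 6 rose and 2 fell under pyrimethamine (median 0.15). Without mitoxantrone 1 the fall of UPP1 under mitoxantrone was not called (-0.11, adjusted p = 0.0669), and the median of these 13 was 0.06. The members with the largest changes were ATF4 (1.46 under mitoxantrone, -1.24 under pyrimethamine), the factor of the integrated stress response, and RP9P (0.76), DNAJB2 (-0.97) and ATF3 (-0.88) under mitoxantrone. ATF3 (0.85) and UPP1 (0.47) were highest under pyrimethamine, where ARFRP1 (-0.80) fell.

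PUM2, 1 of the 2 PUMILIO proteins tested that NORAD binds, rose under mitoxantrone (0.46) and fell under pyrimethamine (-0.20). The other PUMILIO gene fell under mitoxantrone (-0.14) and was not called under pyrimethamine (0.05). Of 15 p53 targets, 8 rose and 6 fell under mitoxantrone (median 0.14; all genes 33.5% and 35.8%), with BBC3 (1.19) and SESN2 (0.53) highest and TP53I3 (-2.63) and FAS (-1.43) lowest. Without mitoxantrone 1 the counts were again 8 and 6, but ZMAT3 was then called higher (0.13) and DDB2 was no longer called (0.10, limma adjusted p = 0.0695). Under pyrimethamine 6 rose and 3 fell (median 0.06; all genes 26.4% and 26.9%), with ZMAT3 (0.86) and MDM2 (0.52) highest and DDB2 (-0.48) and BAX (-0.16) lowest. Of 11 other long non-coding RNAs, 6 rose and 2 fell under mitoxantrone (median 0.17), with NEAT1 (0.94), the scaffold of paraspeckles, and KCNQ1OT1 (0.86) highest and MIR22HG (-0.58) and CYTOR (-0.28) lowest. Under pyrimethamine 6 of the 11 rose and none fell (median 0.18), led by MIR22HG (1.15) and KCNQ1OT1 (0.95), and none was lower at an unadjusted p under 0.05 or with edgeR or DESeq2.

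RefSeq promoters (250 bases before to 50 after the start) matched 26 of the 30 members, 21 of them expressed. The pyrimidine run at the start, shown in capitals in the sequences given early, was in 10 of the 21 (47.6%), against 21.1% of all 35116 promoters and 71.1% of 45 promoters of the listed TOP messages. It was found in DANCR, SNHG12, SNHG16, SNHG17, SNHG19, SNHG4, SNHG5, SNHG7, SNHG8 and ZFAS1. The median log2 change of these 10 was 0.84 under mitoxantrone and 0.05 under pyrimethamine, and that of the other 11 was 0.72 and 0.04. The ranges overlapped in both comparisons. For 13 of the 21 the RefSeq start is more than 5 bases from the start in GENCODE 29, GAS5 (163 bases) among them, so whether a run is found depends on which start is used.

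The E-box CACGTG, bound by MYC and its partners and equal on both strands, was in NORAD and SNHG7 (7.26% of all promoters). TGACNNNGC, the core of the antioxidant response element that NRF2 binds, was found on either strand in NORAD, SNHG20 and SNHG4 (13.3% of all promoters). TGATGNAA, the core of the composite site of ATF4 and CEBP factors, was in none of the 21 (3.62% of all). These matches describe letters in the window only. Of the 3 genes with the NRF2 core, SNHG4 fell under pyrimethamine and rose under mitoxantrone, and NORAD and SNHG20 were not called under pyrimethamine.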

How the data were processed

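RNA libraries were made from total RNA with standard Illumina protocols, per the labels' protocols. Per the submitters' processing notes, the tools were featureCounts 1.5.1, STAR 2.6.90c, cutadapt 1.12 and FastQC 0.11.5, with hg38 and mm10 as builds. Strand setting, scaling tool and the handling of reads over several genes are not given in the sources used here. The deposited values are a normalized signal that the authors made from read counts with 1 factor per library: 100% of values were whole reads (within 0.01) once multiplied back. They were used as deposited, and the recovered counts served for depth and for edgeR and DESeq2.

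Genes reaching 10 in 4 or more of 12 libraries (16950) entered a limma 3.58.1 fit (R 4.3.3) of log2(value + 1), with group as the only term and an eBayes trend. Tests were two-sided, adjusted by Benjamini-Hochberg over those genes in each comparison, and called at 0.05. For low genes the added 1 makes a log2 change too small, and folds are 2 to its power. The 2 drug comparisons share the 4 controls and are not independent. All expressed members are named. From each gene list the called genes with the 2 largest rises and the 2 largest falls are named. The members and lists were chosen with earlier results of these data known. The fit was tested on simulated data. Coordinates come from GENCODE 29 (58611 of 58884 identifiers found), which may differ from the authors' annotation, and promoters from RefSeq GRCh38.p14. The floor of 3 reads per library covers counting error only, because PCR copies cannot be told from separate molecules.

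Alternatives were another pseudocount, no filter, rescaling to the same total, quantile normalization, robust variance, the 8 libraries compared, a replicate block, edgeR 4.0.16, DESeq2 1.42.0 and leaving out each library.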

Additional observations from a re-analysis of the deposited data

Results flagged for a closer look

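Among 72 sets of 4 libraries (24 expressed members in 3 groups), 6 held a library far from the other 3, where chance flags about 1 set in 20. Of these, 4 were mitoxantrone 1. It was the lowest for GAS5 (3560 against 5601 to 5971), SNHG1 (2113 against 2792 to 2923) and SNHG29 (24517 against 30704 to 31600), and the highest for NORAD (19500.4 against 14459.7 to 14650). SNHG12 was lowest in control 3 (58.1 against 67.2 to 68.3) and in pyrimethamine 1 (54.3 against 86.5 to 87.7). What set these libraries apart was not tested.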

How the results depend on the processing

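Counts of called members moved by at most 1.5 times under the alternatives run, with 1 exception: with quantile normalization 1 member was lower under mitoxantrone than under pyrimethamine, against 3 as reported. With 1 library left out, the members higher and lower were 7 to 8 and 5 to 5 under pyrimethamine, 20 to 22 and 0 to 0 under mitoxantrone, and 20 to 21 and 2 to 3 between the drugs. Changes that turned direction were uncalled before and after. Under pyrimethamine, rescaling to the same total gave -0.055 for SNHG29, -0.048 for ZFAS1, -0.0090 for SNHG6 and -0.022 for NORAD. Quantile normalization gave -0.032 for SNHG29 and 0.034 for SNHG15, edgeR gave -0.0034 for SNHG29 and DESeq2 gave 0.00027 for SNHG15. Under mitoxantrone, quantile normalization gave 0.21 for SNHG20 and 0.33 for SNHG9. With 1 library left out, ranges that crossed 0 were -0.11 to 0.0061 for SNHG11, -0.060 to 0.049 for SNHG29, -0.070 to 0.053 for ZFAS1, -0.058 to 0.029 for SNHG15 under pyrimethamine, -0.27 to 1.6e-05 for SNHG20 and -0.083 to 0.091 for SNHG9 under mitoxantrone. The cause was not tested. Rescaling to the same total moved the median of all genes under mitoxantrone from -0.01 to -0.11. Libraries with the same replicate number did not deviate together (correlations -0.01 to 0.03, other numbers -0.07 to 0.04), so no pairing by number was seen. Whether libraries of the same number were prepared together cannot be judged from these values. With a replicate block the called members were 7 higher and 5 lower under pyrimethamine, 21 and 0 under mitoxantrone, and 21 and 3 between the drugs. Depth limits SNHG20, SNHG12 and SNHG21 most, with 29 to 181 reads per library at the extremes.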

Other observations

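A few genes that newer gene names call SNHG stand in the table under older symbols and were outside the rule, and 4 of them were expressed. They were looked up after the values of the members were known. C6orf48, now SNHG32, read 478, 544, 546 and 588 in the controls, 839, 703, 695 and 839.9 under pyrimethamine and 899, 1439, 1093 and 1108 under mitoxantrone. It rose under both drugs, by 0.51 ± 0.11 and 1.06 ± 0.11 (log2, SE; limma), with no treated library inside the control range. LINC00888, now SNHG33, read 2833, 2667, 2958 and 2799 in the controls, 2451, 2536, 2626 and 2892 under pyrimethamine and 1714, 1836, 1771 and 1833 under mitoxantrone, a log2 change of -0.65 ± 0.05 under mitoxantrone. It fell there, unlike any of the 24 expressed members. LINC02001, now SNHG30, fell under pyrimethamine (-0.38 ± 0.11) and had -0.06 ± 0.11 under mitoxantrone. AC016708.1, now SNHG31, was low, at 11.4 to 50.2 over the 12 libraries, and was called in neither comparison with the control.

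Outside the members, the U3 RNA genes SNORD3A, SNORD3B-1 and SNORD3B-2, near-identical copies whose reads may be split between them, were lower under both drugs, with no treated library inside the control range. SNORD3A went from 169.9 ± 30.2 to 57.7 ± 14.2 (SD, n = 4), a log2 change of -1.56 ± 0.18 (SE), and under mitoxantrone the log2 change was -0.66 ± 0.18. SNORD3B-1 had -2.40 ± 0.33 and -2.10 ± 0.33 under pyrimethamine and mitoxantrone, and SNORD3B-2 had -1.81 ± 0.36 and -1.71 ± 0.36. SNORA12, which lies in no member, had means of 7.77 in the controls, 42.8 under pyrimethamine and 1.72 under mitoxantrone. The control and mitoxantrone means were below 10, so it passed the filter largely through the pyrimethamine libraries, and no test is drawn from it. Its mitoxantrone mean also lay below the value of 3 reads (2.69 to 3.71 in those libraries). These genes were singled out after their values were seen.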
